A study of Homo sapiens with 6 samples.

Results

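The comparison set 4 libraries of HepG2 knockout cells, with miR-23a or miR-27a deleted, as one side against 2 scramble (Scr) libraries. Genes were chosen where all 4 knockout (KO) libraries lay on the same side of both Scr libraries, in depth-normalised counts (CPM, scaled by the TMM method of edgeR). All 6 of the 6 samples of the series entered. Of the 20026 genes in the table, 14163 had enough counts to be tested. Among these, 591 genes (4.17%) were higher and 891 (6.29%) were lower in every KO library than in either Scr library. The rule itself fixes those counts and the direction of every chosen gene, so they describe the libraries and carry no test.

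HepG2 is a line of human liver cancer cells, and RNA-seq was done on 3 groups of 2 samples: Scr, cells with a deletion at miR-23a (miR-23a KO) and cells with a deletion at miR-27a (miR-27a KO). Scr cells, whose genotype is labelled WT, received the Cas9 vector PX458 with no guide. The miR-23a-KO and miR-27a-KO genotypes came from CRISPR/Cas9 deletion in the same line, followed by sorting of single cells. The question was which transcripts move the same way when either miRNA of the cluster is deleted.

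For each KO the study kept 2 clones, and the labels do not say whether replicates 1 and 2 are those clones, separate cultures or repeat libraries. P-values therefore measure only the spread between these samples, which may be technical. Scr cells were also kept as selected colonies, so clone selection and deletion cannot be told apart. The paper reports that both KOs lowered the main mature forms of miR-27a and of the untargeted cluster member. The main mature form of miR-23a was lowered in miR-23a KO and slightly raised in miR-27a KO. Both miR-23a KO clones carried a homozygous deletion of the same length. Clone 1 of miR-27a KO carried a homozygous deletion, and clone 2 a heterozygous deletion with an insertion. The groups are therefore not clean losses of a single miRNA. The deleted miRNA genes were not analysed here, and which library belongs to which group is known from the labels alone. The labels also use a cell-type wording that does not match HepG2, and the sample titles were followed.

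A miRNA guides an Argonaute protein to messenger RNAs that pair with its seed, and the paired transcript is destabilised or translated less. Loss of a miRNA is therefore expected to raise its direct targets, while falling transcripts can reflect indirect steps. miR-23a and miR-27a are cut from the same primary transcript as miR-24, in a cluster known in liver for effects on growth, lipid handling and glucose metabolism.

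The mature sequences of the deleted miRNAs, from RefSeq on GRCh38.p14, are shown because their seeds define the sites counted in the chosen genes. Capitals mark the seed, bases 2 to 8, and the lines run 5′ to 3′.
hsa-miR-23a-3p: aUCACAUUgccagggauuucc
hsa-miR-27a-3p: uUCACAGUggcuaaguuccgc
Both are encoded on the minus strand, hsa-miR-23a-3p at chr19:13836595-13836615 and hsa-miR-27a-3p at chr19:13836447-13836467. Their seeds differ, so each has its own site: AATGTGA for miR-23a-3p and ACTGTGA for miR-27a-3p.

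The Scr libraries held 14891288 and 14405302 counts, against 16515321 and 15930834 for miR-23a KO and 15850642 and 15947365 for miR-27a KO. The table calls these values FPKM, and reading them as estimated counts is an inference, made since 42.6% to 51.0% of them were whole numbers and the totals differed between samples. All CPM and counting intervals rest on that reading. Depth was similar in the 6 libraries, and the spread within groups was not. The log2 ratio between the replicates of a group had an SD over genes of 0.52 for Scr, 1.15 for miR-23a KO and 0.30 for miR-27a KO. More than 2-fold between replicates were 5.61% of genes for Scr, 42.8% for miR-23a KO and 1.41% for miR-27a KO. The miR-23a KO replicates stood far apart and carried the extreme TMM factors, 0.796 and 1.17. Over genes with at least 100 counts, the median squared difference between replicates was 14 times counting noise for Scr, 158 times for miR-23a KO and 1.78 times for miR-27a KO. The miR-27a KO pair was close but still above counting noise. A comparison with counting noise cannot tell separate samples from repeat libraries, and the pair was kept as 2 samples by its labels.

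Cell identity was checked on marker lists. All 10 hepatocyte markers were detected in every sample. SERPINA1 led over all samples together, but ALB was above it in Scr replicate 2 and miR-23a KO replicate 2. The summed CPM, here scaled by total counts alone, was 34380 and 42380 in Scr, against 30800 and 42390 for miR-23a KO and 32350 and 32240 for miR-27a KO. Both miR-27a KO sums lay under both Scr sums, and the miR-23a KO sums lay below and just above the Scr range. Single markers differed in opposite directions. ALB, the gene of serum albumin, read 10060 and 15530 CPM in Scr, against 6287 and 17030 for miR-23a KO and 2174 and 2240 for miR-27a KO. AFP, the fetal counterpart of albumin, read 2501 and 4021 CPM in Scr, against 3031 and 7599 for miR-23a KO and 192 and 200 for miR-27a KO. TF, which encodes transferrin, read 3204 and 2329 CPM in Scr, against 1886 and 2409 for miR-23a KO and 6820 and 7026 for miR-27a KO. ALB and AFP were thus far lower and TF higher in miR-27a KO than in Scr, while in miR-23a KO the replicates lay on either side of at least 1 Scr value for each gene. The summed CPM of the 4 endothelial markers measured was 5.84 and 6.53 in Scr, against 2.66 and 7.97 for miR-23a KO and 4.48 and 5.83 for miR-27a KO, with PECAM1 as the most abundant. Of the 7 fibroblast and stellate markers, 3 were measured and ACTA2 led, with a summed CPM of 209 and 187 in Scr, against 159 and 154 for miR-23a KO and 159 and 156.5 for miR-27a KO. All 4 KO sums of these markers lay under both Scr sums. All 5 cholangiocyte markers were detected, led by KRT19 in Scr and miR-23a KO and by EPCAM in miR-27a KO. Their summed CPM was 439 and 463 in Scr, against 265 and 289 for miR-23a KO and 582 and 589 for miR-27a KO. The cholangiocyte sum was thus lower than Scr in miR-23a KO and higher in miR-27a KO, where EPCAM read 249 and 255 CPM beside 82.7 and 110.0 in Scr. Among the 6 leukocyte markers LYZ led in every library but miR-23a KO replicate 1, where CD68 was just above it. LYZ read 364 and 420 CPM in Scr, against 102 and 214 for miR-23a KO and 1558 and 1625 for miR-27a KO, while PTPRC had 1 to 2 counts in each library. The summed CPM of the leukocyte markers was 527 and 581 in Scr, against 213 and 299 for miR-23a KO and 1675 and 1739 for miR-27a KO. LYZ and this sum were thus lower than Scr in miR-23a KO and higher in miR-27a KO. The part of these marker levels in the chosen genes was not tested. Hepatocyte markers were detected in all 6 libraries, at levels that differed several-fold for single genes, and the defining leukocyte gene PTPRC and endothelial gene TEK were near 0.

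The plot of level and fold change places the chosen genes among all genes tested. Over all genes tested the median log2 fold change was 0.07. It was 0.66 for the 591 higher genes and −0.57 for the 891 lower genes, and the same with the genes at 0 in all libraries of a group set to their bound. Among the 589 higher genes with counts in both groups the fitted values ran from 0.07 to 3.39. Among 890 lower genes they ran from −8.87 to −0.09, with the far end set by RTL8C, which had 3 counts in all KO libraries together. In the fit, 339 of the higher (57.4%) and 435 of the lower genes (48.8%) exceeded 1.5-fold, beside 19.1% of all genes tested. The fit uses the values that chose the genes, so larger shares follow from the rule and carry no test. When the gap between the nearest KO and nearest Scr library also had to exceed 1.5-fold, 18 higher genes (0.127%) and 71 lower genes (0.501%) were left. The median log2 ratio of the higher genes to the Scr mean was 0.43 and 0.70 for miR-23a KO and 0.46 and 0.47 for miR-27a KO. For the lower genes it was −0.54 and −0.50 for miR-23a KO and −0.48 and −0.48 for miR-27a KO.

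**Figure D1:**
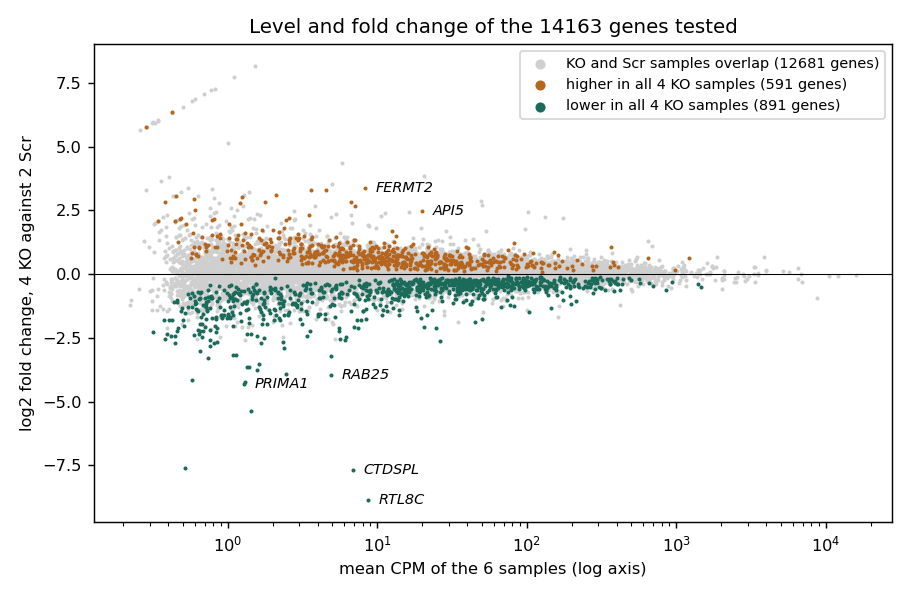
Log2 fold change of 4 KO against 2 Scr samples (y axis) against mean CPM of the 6 samples (log x axis) for the 14163 genes tested, with 591 higher genes in brown, 891 lower genes in green and overlapping genes in grey. CTDSPL and RTL8C lie far below all other genes at their level.

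In the quasi-likelihood test of edgeR, adjusted by Benjamini-Hochberg, 0 genes (0%) were called higher and 2 (0.0141%) lower, at an adjusted p under 0.05 and over 1.5-fold. At an unadjusted p under 0.05 the same fit had 108 genes higher and 171 lower. DESeq2 called 4 higher and 14 lower, and all 18 were among the genes without overlap. These p-values rest on the same values as the no-overlap rule and add no independent support. With each KO as its own group and the average of both against Scr, edgeR called 0 higher and 6 lower, of which 4 were without overlap.

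With a library left out, fewer libraries have to lie apart, so the counts rise by construction, and the rise alone does not show that the genes depend on that library. Without Scr replicate 1 there were 1274 higher (8.66% of the genes tested) and 1530 lower genes (10.4%), and without Scr replicate 2 there were 2092 (14.2%) and 2368 (16.0%). Without miR-23a KO replicate 1 the counts were 2775 (19.7%) and 2993 (21.3%), and without miR-23a KO replicate 2 they were 1281 (9.19%) and 1534, of 13935 genes tested. Leaving out miR-27a KO replicate 1 gave 695 (4.96%) and 1002 (7.15%), and leaving out replicate 2 gave 686 (4.91%) and 992 (7.09%). Counts of gene lists with a library left out stand beside these shares, and not beside those with all 6 libraries.

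The balance between higher and lower genes differed with the correction for GC content and length, which were corrected together. Higher genes made up 39.9% of the chosen genes as measured and 62.3% after GC content and length were corrected in each library, with 1293 higher and 784 lower genes of 13464. Of the 591 higher genes, 563 were still tested after that correction and 401 of these (71.2%) were still higher in all 4 KO libraries. Of the 891 lower genes 845 were still tested and 424 (50.2%) were still lower. With total counts as the only scaling, 428 genes were higher and 903 lower, and the same side was kept by 299 (50.6%) of the higher and 576 (64.6%) of the lower genes. With median-ratio scaling 721 genes were higher and 765 lower, with 591 (100%) and 764 (85.7%) kept. Counts of gene lists in each of these settings stand beside these counts over all genes, and not beside those with TMM scaling. Which direction held more genes thus differed with the correction, and where a list member named below overlapped under total counts, median-ratio scaling or the correction, this is given where its list is described.

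The lower genes with the widest gap were RTL8C and CTDSPL, the only genes called by edgeR with 4 KO against 2 Scr libraries. RTL8C, on chromosome X, encodes a small Gag-like protein derived from a retrotransposon. It read 28.3 and 23.1 CPM in Scr, against 0.152 and 0.054 for miR-23a KO and 0 and 0 for miR-27a KO. Scr libraries held 407 and 342 counts, and the 4 KO libraries together held 3, so the transcript was nearly absent from every KO library. The Scr to KO ratio of counts per library, scaled for depth, was 555 with a 95% counting interval from 189 to 2696. The fitted log2 fold change, which at so few counts depends on the prior count of the fit, was −8.87 (SE 0.74), with an adjusted p of 0.0242 in edgeR after Benjamini-Hochberg adjustment. It was lower in 4 of 4 KO libraries, and the adjusted p lay under 0.05 in 9 of 14 alternatives, with a range from 2.6e-17 in DESeq2 to 0.456 in edgeR. In edgeR the call was lost without Scr replicate 1, without Scr replicate 2 and without miR-23a KO replicate 2. Without miR-23a KO replicate 2 the Benjamini-Hochberg adjusted p of edgeR was 0.319. Over the 14 alternatives the log2 fold change of RTL8C ran from −9.88 to −8.49. Closely related copies of RTL8C exist, so its reads may be shared, and its value is uncertain for that reason.

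CTDSPL, on chromosome 3, encodes a small phosphatase of the RNA polymerase II tail that also acts on RB and has been described as a tumour suppressor. It read 20.7 and 20.2 CPM in Scr, against 0.076 and 0.162 for miR-23a KO and 0.061 and 0.06 for miR-27a KO. Scr libraries held 298 and 299 counts and no KO library held more than 3, so the groups were separated by a wide margin with almost no spread in Scr. The ratio of scaled counts was 221 with a 95% counting interval from 101 to 605, and the fitted log2 fold change, which depends on the prior count as for RTL8C, was −7.68 (SE 0.47). The edgeR adjusted p was 0.00487 by Benjamini-Hochberg, lower in 4 of 4 KO libraries. Over the 14 alternatives, edgeR and DESeq2 with Benjamini-Hochberg adjustment gave from 7.41e-21 to 0.122, under 0.05 in 12 of them. Leaving out Scr replicate 1 or Scr replicate 2 gave the edgeR values, adjusted by Benjamini-Hochberg, of 0.122 and 0.116.

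RAB25, a GTPase of recycling vesicles in epithelial cells, read 13.8 and 12.2 CPM in Scr, against 1.83 and 0.916 for miR-23a KO and 0.545 and 0.12 for miR-27a KO. All KO values lay far under Scr, and they differed among themselves more than the Scr values did. Its log2 fold change was −3.94 (SE 0.77). PRIMA1, which anchors acetylcholinesterase in membranes, read 3.62 and 3.38 CPM in Scr, against 0.152 and 0.215 for miR-23a KO and 0.182 and 0.12 for miR-27a KO. KO libraries held 2 to 4 counts of PRIMA1, all close together and apart from Scr, and the Scr to KO ratio of scaled counts was 20.6 with a 95% counting interval from 11.04 to 42.6. In edgeR with Benjamini-Hochberg adjustment the adjusted p of PRIMA1 was 0.17, the lowest value of any gene not called, shared with FERMT2.

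CADM1, TNS4, ADAMTS9 and AGTR1 were also among the 12 lower genes with the widest gap. CADM1, an immunoglobulin-type adhesion molecule, read 5.43 and 2.84 CPM in Scr, against 0.381 and 0.646 for miR-23a KO and 0.061 and 0.301 for miR-27a KO. TNS4, a tensin that links integrins to signalling, read 4.52 and 2.43 CPM in Scr, against 0.152 and 0.431 for miR-23a KO and 0.182 and 0.301 for miR-27a KO. Both were low in every KO library although their Scr replicates differed. ADAMTS9, a secreted metalloprotease that cuts proteoglycans, read 4.31 and 3.92 CPM in Scr, against 0.304 and 0.862 for miR-23a KO and 0 and 0 for miR-27a KO. AGTR1, the main receptor for angiotensin II, read 2.99 and 2.84 CPM in Scr, against 0.457 and 0.7 for miR-23a KO and 0.485 and 0.602 for miR-27a KO. ADAMTS9 was undetected in miR-27a KO and low in miR-23a KO, but it overlaps ADAMTS9-AS2 on the opposite strand and the use of strand in counting is not given in the sources used here, so its source is uncertain. AGTR1 was low and even across KO libraries. Their log2 fold changes were −3.53 for CADM1, −3.64 for TNS4, −3.76 for ADAMTS9 and −2.36 for AGTR1.

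PLA2G16 and SPTSSB were among the same 12 genes. PLA2G16, a phospholipase A of fat storage, read 2.85 and 2.77 CPM in Scr, against 0.304 and 0.269 for miR-23a KO and 0.424 and 0.241 for miR-27a KO, a log2 fold change of −3.15. SPTSSB, a small subunit of serine palmitoyltransferase in sphingolipid synthesis, read 2.16 and 6.08 CPM in Scr, against 0.076 and 0.108 for miR-23a KO and 0 and 0.181 for miR-27a KO. With 0 to 3 counts of SPTSSB in each KO library, the Scr to KO ratio was 44.8, with a 95% counting interval from 20.0 to 124.5. PLA2G16 was even within each group, and the Scr replicates of SPTSSB differed widely while every KO value stayed under both. The long non-coding RNA LOC100507507 read 1.53 and 1.56 CPM in Scr and 0 in all 4 KO libraries, at least 8.2-fold lower with 3 counts per library as the floor. TIAF1 read 15.9 and 8.38 CPM in Scr, against 0.381 and 0.7 for miR-23a KO and 1.39 and 2.77 for miR-27a KO. It lies inside MYO18A on the same strand, so its reads cannot be told apart from those of MYO18A and the value is uncertain. Intervals and floors cover counting error only.

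FERMT2 had the widest upward gap. It encodes kindlin-2, which activates integrins at focal adhesions. Its level was 0.904 and 1.35 CPM in Scr, against 12.6 and 13.5 for miR-23a KO and 11 and 10.5 for miR-27a KO. Every KO library stood far above both Scr libraries, and the 4 KO values were close together. The log2 fold change of FERMT2 was 3.39 (SE 0.41), higher in 4 of 4 KO libraries. With Benjamini-Hochberg adjustment its p was 0.17 in edgeR and 3.82e-11 in DESeq2, and the range over the 14 alternatives ran from that value to 1.0. API5, an inhibitor of apoptosis, read 7.17 and 2.70 CPM in Scr, against 17 and 28.0 for miR-23a KO and 28.2 and 36.5 for miR-27a KO. Its Scr replicates differed, and all KO values lay above both, with a log2 fold change of 2.47 (SE 0.53).

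RSPH14, PIH1D2, TOPORS and CCDC77 were also among the 12 genes with the widest upward gap. RSPH14, a protein of radial spokes, read 0.974 and 0.946 CPM in Scr, against 7.15 and 4.09 for miR-23a KO and 4.42 and 3.37 for miR-27a KO, a log2 fold change of 2.30. PIH1D2, of the family that assembles axonemal dynein, read 0.139 and 0.338 CPM in Scr, against 1.14 and 2.53 for miR-23a KO and 1.15 and 1.99 for miR-27a KO. Scr held only 2 and 5 counts of PIH1D2, and all KO values of both genes were higher. TOPORS, a ligase for ubiquitin and SUMO, read 2.09 and 2.77 CPM in Scr, against 5.78 and 9.43 for miR-23a KO and 5.58 and 6.21 for miR-27a KO. CCDC77 read 1.60 and 1.83 CPM in Scr, against 3.58 and 7.22 for miR-23a KO and 3.58 and 3.68 for miR-27a KO. In TOPORS and CCDC77 miR-23a KO replicate 2 was the highest and the other KO values lay close together. RSPH14, PIH1D2, TOPORS and CCDC77 each overlap a gene on the opposite strand, so their source is uncertain for the reason of strand given for ADAMTS9.

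The other upward gaps had Scr levels of 2.30 CPM or less. ITGA6-AS1, antisense to the integrin gene ITGA6, read 0.278 and 0.744 CPM in Scr, against 4.03 and 6.09 for miR-23a KO and 2.36 and 7.95 for miR-27a KO. It was higher in every KO library but varied within both KO groups, and its source is uncertain for the same reason. PLBD1, a phospholipase B-like protein, read 0 in both Scr libraries, against 0.381 and 1.02 for miR-23a KO and 0.788 and 0.361 for miR-27a KO, at least 3.1-fold higher by the same floor. HLX-AS1 had 1 count in each Scr library and 9 to 12 in each KO library, a scaled ratio of 9.0 with a 95% counting interval from 2.33 to 76.9. It overlaps HLX on the opposite strand, so its source is uncertain too. LOC105369420 and LOC105379525 held at most 6 counts in any Scr library and at least 8 in every KO library. LOC107985381 read 0.278 and 2.30 CPM in Scr and between 4.19 and 22.8 in KO, with the top value in miR-23a KO replicate 2.

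**Figure D2:**
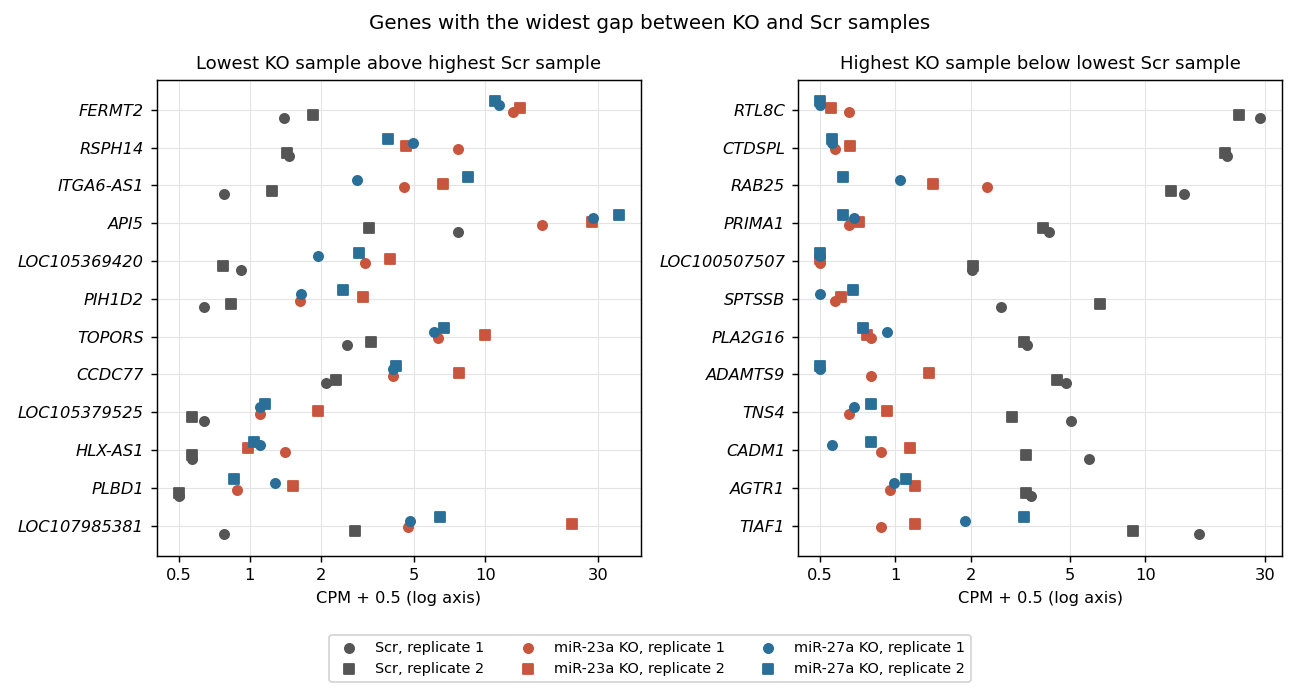
CPM plus 0.5 (log x axis) in each of the 6 samples for the 12 genes with the widest upward gap (left) and the 12 with the widest downward gap (right), coloured by group, with circles for replicate 1 and squares for replicate 2. In each row the Scr points stand apart from all KO points, most widely for RTL8C, CTDSPL and FERMT2.

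Of the 12 genes with the widest upward gap, 7 had a 3′ UTR in the annotation and 0 of these held a site for either seed. Of the 12 with the widest downward gap, 11 had a 3′ UTR, with a miR-23a-3p site in 5 (CADM1, CTDSPL, PRIMA1, SPTSSB and TNS4) and a miR-27a-3p site in 2 (CADM1 and CTDSPL). Of all tested genes with a 3′ UTR, 21.1% and 18.7% held these sites. Counts this small cannot decide whether the directions differ, and this was not tested. After correction for GC content and length, 9 of the 9 upward genes with a GC value and 11 of the 11 downward genes kept their side. They kept it with total-count and median-ratio scaling too. Since these genes were picked for the widest gap on the same counts, keeping their side was largely given by the choice.

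Gene lists by function were described by how many of their tested members had no overlap, beside 4.17% higher and 6.29% lower and a median log2 fold change of 0.07 over all genes tested. No list was tested as a set, and 0 of 51 lists had a member called by edgeR, where 2 genes were called in all and 279 genes had an unadjusted p under 0.05. DESeq2 called 18, among them AKR1C2 of the NRF2 targets. In 12 lists no member stood apart, in 23 more members were lower and in 13 more were higher. Counts without each Scr and each miR-23a KO library are given beside each list, and leaving out a miR-27a KO library moved no count of a list by more than 2 genes. The plot of gene lists shows those with at least 12 members tested and some member apart.

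**Figure D3:**
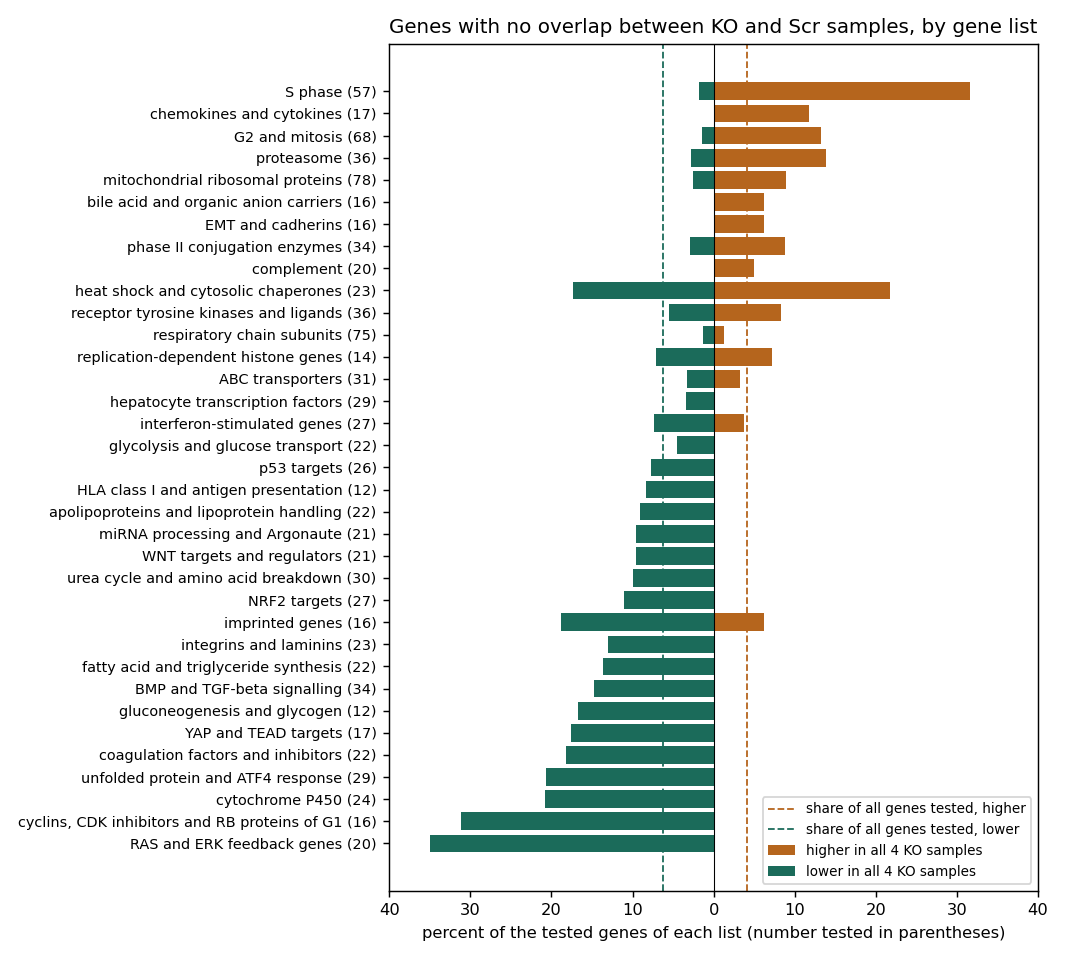
Percent of the tested members of each gene list (number tested in parentheses) that were higher in all 4 KO samples (brown, to the right) or lower in all 4 (green, to the left), with dashed lines at the shares of all genes tested, 4.17% and 6.29%. S phase has the longest bar to the right and the feedback genes of RAS and ERK the longest to the left.

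Of the lists with at least 12 members tested, S phase had the largest share of higher genes. In this list, 18 of 57 tested genes (31.6%) were higher in all 4 KO libraries and 1, the cyclin gene CCNE1, was lower, with a median log2 fold change of 0.38. Among the higher members were genes of several steps of replication: the helicase and its loading (MCM2, MCM3, CDC45, GINS2, GINS4), primase and polymerases (PRIM1, PRIM2, POLA2, POLD3, POLE), clamp loading (RFC2, RFC5, DSCC1), and repair and fork protection (FEN1, EXO1, TIPIN). E2F8, a transcription factor of the same programme, was higher too. PRIM1, the catalytic subunit of primase, read 21.6 and 22.2 CPM in Scr, against 29.2 and 44.8 for miR-23a KO and 36.8 and 34.3 for miR-27a KO. CDC45, part of the replicative helicase, read 27.3 and 29.9 CPM in Scr, against 41.6 and 35.5 for miR-23a KO and 35.8 and 37.4 for miR-27a KO. Scr replicates nearly coincided for both genes and every KO value was higher, by 0.73 (SE 0.28) for PRIM1 and 0.39 (SE 0.24) for CDC45 on the log2 scale. TIPIN, which protects stalled forks, read 7.93 and 8.79 CPM in Scr, against 14.2 and 14.6 for miR-23a KO and 10.9 and 13.5 for miR-27a KO. GINS4, of the same helicase as CDC45, read 25.7 and 28.7 CPM in Scr, against 34.9 and 36.3 for miR-23a KO and 39.5 and 38.0 for miR-27a KO. Every KO value of TIPIN and GINS4 lay above both Scr values, though GINS4 overlapped with total-count scaling. With total-count scaling MCM3, PRIM2, POLD3, POLE, RFC5, FEN1, EXO1 and E2F8 overlapped as well, E2F8 also did after GC and length correction, and CCNE1 did in both and with median-ratio scaling. With total counts, median-ratio scaling and the correction in turn, 428, 721 and 1293 of all genes tested were higher. The number of higher S phase genes was then 10, 22 and 32. It was 19 (33.3%) without Scr replicate 1, 35 (61.4%) without Scr replicate 2, 33 (57.9%) without miR-23a KO replicate 1 and 24 (42.1%) without miR-23a KO replicate 2, with 1, 1, 1 and 2 lower. The median of the list ran from 0.34 without Scr replicate 1 to 0.46 without Scr replicate 2.

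In the list of G2 and mitosis, 9 of 68 genes (13.2%) were higher and 1, the checkpoint gene BUB3, was lower, with a median log2 fold change of 0.44. MAD2L1, a checkpoint protein of the spindle, read 31.3 and 33.5 CPM in Scr, against 54.8 and 50.8 for miR-23a KO and 39.9 and 41.6 for miR-27a KO. SPC25, of the kinetochore, read 6.61 and 7.91 CPM in Scr, against 11.8 and 14.2 for miR-23a KO and 10.2 and 9.82 for miR-27a KO. For both, miR-23a KO libraries were highest and miR-27a KO libraries lay between them and Scr, with log2 fold changes of 0.53 and 0.66. MAD2L1 overlapped after GC and length correction, and BUB3 did so and with total counts. CCNF, a cyclin that directs protein breakdown, read 41.8 and 41.4 CPM in Scr, against 66.4 and 47.3 for miR-23a KO and 52.1 and 52.1 for miR-27a KO. KIF2C, a kinesin that shortens microtubules, read 85.1 and 88.1 CPM in Scr, against 106 and 107 for miR-23a KO and 104 and 106 for miR-27a KO. The 4 KO values of KIF2C nearly coincided, while CCNF was highest in miR-23a KO replicate 1, and KIF2C overlapped with total-count scaling. Beside 428, 721 and 1293 of all genes, the list count was 5 with total counts, 11 with median-ratio scaling and 26 after the correction. It was 12 (17.6%) without Scr replicate 1, 42 (61.8%) without Scr replicate 2, 31 (45.6%) without miR-23a KO replicate 1 and 10 (14.7%) without miR-23a KO replicate 2, with 1, 1, 2 and 1 lower. The median of the list was 0.25 without miR-23a KO replicate 2 and 0.77 without Scr replicate 2.

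Of 16 tested regulators of G1, 5 were lower and 0 higher, while the median log2 fold change was −0.02, with 7 fitted higher and 9 lower. The 5 were cyclins CCND1 and CCND2, the transcription factor MYC, and the CDK inhibitor genes CDKN2A and CDKN2B. CCND1 read 286 and 345 CPM in Scr, against 159 and 257 for miR-23a KO and 242 and 235 for miR-27a KO. MYC read 533 and 343 CPM in Scr, against 251 and 288 for miR-23a KO and 301 and 295 for miR-27a KO. Both were lower in every KO library, by a log2 fold change of −0.50 (SE 0.29) for CCND1 and −0.63 (SE 0.28) for MYC, and the Scr replicates of MYC differed by more than the KO libraries did. MYC stood at −0.27 without Scr replicate 1 and −0.90 without Scr replicate 2, and CCND1 at −0.35 without Scr replicate 2 and also without miR-23a KO replicate 1. CCND2 read 8.56 and 8.18 CPM in Scr, against 5.33 and 6.68 for miR-23a KO and 3.27 and 2.11 for miR-27a KO. CDKN2A, which encodes p16 and ARF, read 17.2 and 14.2 CPM in Scr, against 12.6 and 2.58 for miR-23a KO and 9.39 and 7.29 for miR-27a KO. CDKN2A varied most within miR-23a KO, and CCND2 was lowest in miR-27a KO. CCND1 and CDKN2B overlapped with total-count scaling, and MYC and CCND2 overlapped after GC and length correction, where the list had 3 lower and 1 higher and its median was 0.11. The list had 5 lower without Scr replicate 1, 5 lower and 3 higher without Scr replicate 2, 8 lower and 3 higher without miR-23a KO replicate 1, and 5 lower without miR-23a KO replicate 2. Its median lay between −0.31 without miR-23a KO replicate 1 and 0.11 without miR-27a KO replicate 2, and with total counts 3 were lower.

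Feedback genes of RAS and ERK signalling, which are switched on by ERK and restrain it, had the largest share of lower members of any list. Of 20 tested, 7 (35.0%) were lower and 0 higher, with a median log2 fold change of −0.57: phosphatases of ERK and related kinases (DUSP4, DUSP5, DUSP6), Sprouty-type inhibitors (SPRY1, SPRY4, SPRED2) and the ERK-induced factor ETV5. DUSP6 read 69.9 and 83.7 CPM in Scr, against 41.6 and 54.9 for miR-23a KO and 28.1 and 32.1 for miR-27a KO, a log2 fold change of −0.97 (SE 0.32). SPRY4 read 62.5 and 59.3 CPM in Scr, against 42.6 and 49.2 for miR-23a KO and 24.1 and 25.2 for miR-27a KO. In both, miR-27a KO was lowest and miR-23a KO lay between it and Scr. DUSP4 read 7.86 and 6.42 CPM in Scr, against 4.95 and 3.82 for miR-23a KO and 0.424 and 0.602 for miR-27a KO. SPRY1 read 21.4 and 21.0 CPM in Scr, against 12.8 and 17.8 for miR-23a KO and 9.76 and 11 for miR-27a KO. DUSP4 was far lower in miR-27a KO than in miR-23a KO, and SPRY1 showed the same order with a smaller step. SPRY1 and SPRED2 overlapped with total-count scaling and DUSP4 and DUSP5 after GC and length correction. The list had 5 lower genes with total counts, 7 with median-ratio scaling and 7 after GC and length correction, and the count was 9 without Scr replicate 1, 11 without Scr replicate 2, 10 without miR-23a KO replicate 1 and 12 without miR-23a KO replicate 2. In these 4 settings 1, 0, 0 and 0 were higher. The median was −0.79 without miR-23a KO replicate 2 and −0.38 without Scr replicate 1.

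Among BMP and TGF-beta signalling genes, 5 of 34 were lower and 0 higher, with a median log2 fold change of −0.04. FST, which binds and blocks activins, read 14.4 and 14 CPM in Scr, against 3.96 and 6.62 for miR-23a KO and 1.21 and 1.63 for miR-27a KO, a log2 fold change of −2.08 (SE 0.65). BMP4, a ligand, read 413 and 344 CPM in Scr, against 284 and 308 for miR-23a KO and 151 and 158 for miR-27a KO. Both were lowest in miR-27a KO with miR-23a KO between, and FST had the wider margin. ACVR1, a type I receptor, read 20.03 and 20.2 CPM in Scr, against 7.99 and 17 for miR-23a KO and 12.8 and 11.9 for miR-27a KO. SMAD6, an inhibitory SMAD, read 31.2 and 26.9 CPM in Scr, against 22.0 and 22.8 for miR-23a KO and 21.8 and 21.3 for miR-27a KO. SMAD6 was even across KO libraries and ACVR1 was not. BMP4 overlapped with total-count scaling and after GC and length correction, ACVR1 with total counts and SMAD6 after the correction. The count was 3 with total counts and 2 after the correction, where ACVR1 and FST remained of the members named here. Without Scr replicate 1 the list had 6 lower and 3 higher, without Scr replicate 2 it had 8 and 1, without miR-23a KO replicate 1 it had 10 and 7, and without miR-23a KO replicate 2 it had 9 and 1. The median was −0.16 without miR-23a KO replicate 2 and 0.09 without miR-23a KO replicate 1.

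YAP and TEAD targets had 3 of 17 lower and 0 higher, with a median log2 fold change of −0.07. CTGF, a matricellular protein, read 317 and 341 CPM in Scr, against 122 and 189 for miR-23a KO and 157 and 160 for miR-27a KO, a log2 fold change of −1.07 (SE 0.26). CYR61, of the same family, read 23.3 and 25.8 CPM in Scr, against 16.8 and 16.9 for miR-23a KO and 16.8 and 14.3 for miR-27a KO. AMOTL2, a scaffold that holds YAP back, read 36.6 and 45.6 CPM in Scr, against 33.3 and 26.2 for miR-23a KO and 24.7 and 25.7 for miR-27a KO. All 3 were lower in every KO library with total-count scaling, with median-ratio scaling and after GC and length correction, where 4 lower and 1 higher members were counted and the median was 0.01. The YAP list had 3 lower without Scr replicate 1, 4 without Scr replicate 2, 7 lower and 4 higher without miR-23a KO replicate 1, and 5 lower without miR-23a KO replicate 2. Its median went from −0.23 without miR-23a KO replicate 1 to 0.08 without Scr replicate 2.

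**Figure D4:**
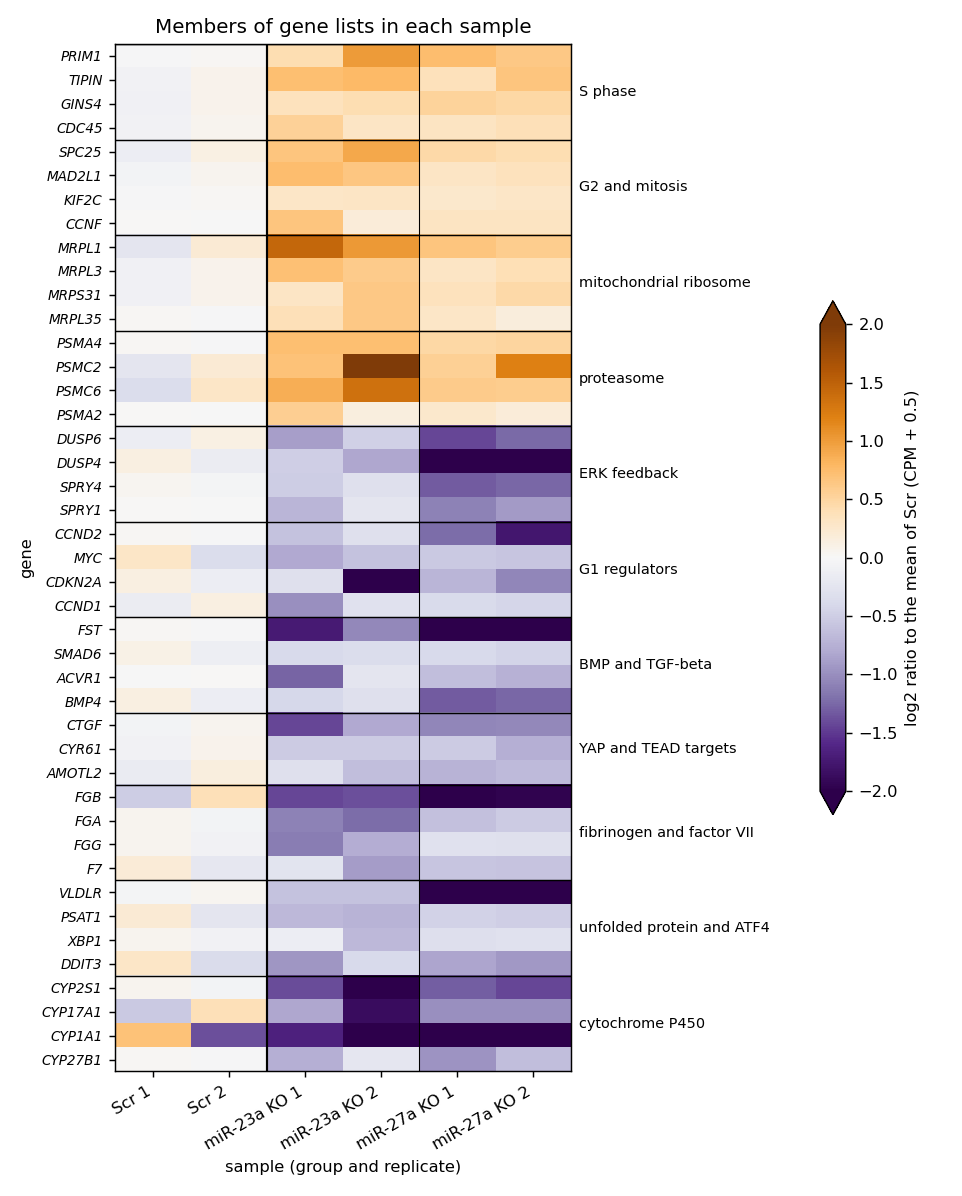
Log2 ratio of CPM plus 0.5 to the mean of the 2 Scr samples for named members of 11 gene lists (rows) in each of the 6 samples (columns), orange for higher and purple for lower, with the scale ending at 2 in each direction. Replication, mitosis, mitochondrial ribosome and proteasome members are orange in all 4 KO columns, and the members of the other lists shown are purple.

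Of 22 coagulation genes tested, 4 were lower and 0 higher, with a median log2 fold change of −0.03, and these were the 3 fibrinogen chains and factor VII. FGB read 25.5 and 47.5 CPM in Scr, against 13.2 and 13.6 for miR-23a KO and 8.67 and 9.04 for miR-27a KO, a log2 fold change of −1.71 (SE 0.36). FGA read 234 and 216 CPM in Scr, against 105 and 96.1 for miR-23a KO and 146 and 156 for miR-27a KO. FGG read 158 and 145 CPM in Scr, against 69.3 and 88.4 for miR-23a KO and 124 and 123 for miR-27a KO. All 3 chains were lower in every KO library, FGA and FGG most in miR-23a KO and FGB most in miR-27a KO. F7 read 62.5 and 47.0 CPM in Scr, against 46.0 and 29.2 for miR-23a KO and 36.8 and 36.1 for miR-27a KO, and it overlapped with median-ratio scaling. Plasma and acute-phase proteins had 0 of 26 apart in either direction in a list with 0 calls by edgeR. Coagulation genes had 4 lower and 1 higher without Scr replicate 1, 6 and 4 without Scr replicate 2, 5 and 3 without miR-23a KO replicate 1, and 4 and 1 without miR-23a KO replicate 2. For the plasma proteins these counts were 3 and 0, 1 and 0, 12 and 0, and 2 and 1. The coagulation median was −0.11 without miR-23a KO replicate 1 and 0.08 without miR-23a KO replicate 2. With total counts, median-ratio scaling and the correction in turn, 4, 3 and 5 coagulation genes and 1, 0 and 2 plasma proteins were lower.

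Of 24 cytochrome P450 genes, 5 were lower and 0 higher, with a median log2 fold change of −0.23, and 5 were lower with total counts, with median-ratio scaling and after GC and length correction. CYP2S1, an extrahepatic-type P450, read 26.1 and 24.1 CPM in Scr, against 9.21 and 4.90 for miR-23a KO and 9.88 and 9.04 for miR-27a KO, a log2 fold change of −1.60 (SE 0.35). CYP1A1, induced through the aryl hydrocarbon receptor, read 22.3 and 4.93 CPM in Scr, against 3.96 and 2.32 for miR-23a KO and 1.39 and 1.39 for miR-27a KO. CYP2S1 lay under an even Scr pair in every KO library, while for CYP1A1 the Scr replicates themselves lay several-fold apart. CYP17A1, of steroid synthesis, read 0.765 and 1.89 CPM in Scr and 0.533 or less in every KO library. CYP27B1, which activates vitamin D, read 5.84 and 5.68 CPM in Scr, against 3.20 and 4.85 for miR-23a KO and 2.73 and 3.55 for miR-27a KO, and it overlapped with total-count scaling and after GC and length correction. The fifth was CYP39A1, of bile acid synthesis. The list had 10 lower and 0 higher without Scr replicate 1, 8 and 4 without Scr replicate 2, 10 and 2 without miR-23a KO replicate 1, and 7 and 0 without miR-23a KO replicate 2. Its median ran from −0.40 without miR-23a KO replicate 1 to −0.0031 without Scr replicate 2.

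Genes of the unfolded protein and ATF4 responses had 6 of 29 lower and 0 higher, with a median log2 fold change of −0.21. PSAT1, of serine synthesis, read 426 and 311 CPM in Scr, against 229 and 222 for miR-23a KO and 269 and 263 for miR-27a KO. VLDLR, a lipoprotein receptor, read 11.2 and 12 CPM in Scr, against 7.46 and 7.49 for miR-23a KO and 1.15 and 1.02 for miR-27a KO. The KO replicates of each group were close together for both genes, and VLDLR was lowest in miR-27a KO by a wide step. XBP1, a transcription factor of secretory capacity, read 691 and 634 CPM in Scr, against 605 and 414 for miR-23a KO and 532 and 545 for miR-27a KO. DDIT3, a stress-induced factor linked to cell death, read 35.7 and 22.4 CPM in Scr, against 14.9 and 22.0 for miR-23a KO and 16.1 and 14.9 for miR-27a KO. XBP1 and DDIT3 were only just under the nearer Scr library, and XBP1 overlapped with median-ratio scaling, DDIT3 with total counts and after the correction, and VLDLR after the correction only. ASNS and PDIA4 were the others, and both overlapped after the correction, ASNS with median-ratio scaling and PDIA4 with total counts as well. The count was 4 with median-ratio scaling and 4 after the correction. It was 5 without Scr replicate 1, 15 without Scr replicate 2, 15 without miR-23a KO replicate 1 and 10 without miR-23a KO replicate 2, with 1, 2, 0 and 0 higher. The median was −0.40 without Scr replicate 2 and −0.12 without Scr replicate 1.

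Fatty acid synthesis had 3 of 22 lower and 0 higher, with a median log2 fold change of −0.13. ACLY, which makes cytosolic acetyl-CoA, read 309 and 299 CPM in Scr, against 246 and 179 for miR-23a KO and 198 and 200 for miR-27a KO. SCD, which desaturates fatty acids, read 1478 and 1789 CPM in Scr, against 1357 and 912 for miR-23a KO and 1395 and 1398 for miR-27a KO. ACLY had the wider margin but overlapped after GC and length correction, and SCD overlapped under total-count scaling and under that correction. ACACB, an acetyl-CoA carboxylase, was the other and overlapped with total-count and with median-ratio scaling. Cholesterol genes had 0 of 24 apart and fatty acid oxidation 0 of 21, with 0 edgeR calls in either list. Without Scr replicate 1, Scr replicate 2, miR-23a KO replicate 1 and miR-23a KO replicate 2 in turn, fatty acid synthesis had 3, 3, 6 and 6 lower and 0, 2, 3 and 1 higher. Cholesterol genes had 2, 1, 8 and 0 lower and 0, 5, 0 and 1 higher, and fatty acid oxidation had 3, 1, 0 and 0 lower and 0, 2, 4 and 3 higher. The median of fatty acid synthesis was −0.17 without Scr replicate 1 and −0.0044 without miR-23a KO replicate 2. With total counts, median-ratio scaling and the correction in turn 2, 2 and 3 of its genes were lower, and 1 cholesterol gene was higher after the correction.

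NRF2 targets had 3 of 27 lower and 0 higher, with a median log2 fold change of −0.18. AKR1C2, a ketosteroid reductase, read 64.3 and 36.2 CPM in Scr, against 7.54 and 19.8 for miR-23a KO and 9.21 and 10.1 for miR-27a KO, a log2 fold change of −2.11 (SE 0.44). NQO1, a quinone reductase, read 1275 and 958 CPM in Scr, against 877 and 455 for miR-23a KO and 760 and 777 for miR-27a KO. AKR1C2 was far under both Scr values in every KO library, and NQO1 came near the lower Scr value in miR-23a KO replicate 1 and overlapped after GC and length correction. DESeq2 called AKR1C2 lower, at a log2 fold change of −2.08 and a Benjamini-Hochberg adjusted p of 0.0339, and edgeR did not. AKR1C2 has close paralogs, so its reads may be shared with them. CES1, a carboxylesterase, was the third. NRF2 targets had 3 lower and 2 higher without Scr replicate 1, 11 and 0 without Scr replicate 2, 10 and 2 without miR-23a KO replicate 1, and 4 and 2 without miR-23a KO replicate 2. The median was −0.25 without Scr replicate 2 and 0.04 without Scr replicate 1. With total counts 5 were lower, with median-ratio scaling 3, and after the correction 2 were lower and 1 higher.

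Of the mitochondrial ribosomal proteins, 7 of 78 were higher and 2 lower (MRPL44, MRPS5), with a median log2 fold change of 0.17. MRPL1 read 4.94 and 6.96 CPM in Scr, against 17 and 12.6 for miR-23a KO and 9.70 and 9.16 for miR-27a KO. MRPL3 read 78.2 and 87.3 CPM in Scr, against 135 and 126 for miR-23a KO and 102 and 109 for miR-27a KO. Both are proteins of the large subunit and both were highest in miR-23a KO. Cytosolic ribosomal proteins had 0 of 78 apart, with 0 edgeR calls and a median of 0.13, and the respiratory chain had 1 higher (SDHD) and 1 lower (NDUFV2) of 75. MRPL44, MRPS5, SDHD and NDUFV2 overlapped with total counts, and MRPS5 and SDHD also after GC and length correction. Without Scr replicate 1, Scr replicate 2, miR-23a KO replicate 1 and miR-23a KO replicate 2 in turn, the mitochondrial list had 8, 14, 9 and 15 higher and 3, 3, 29 and 2 lower. The cytosolic list had 1, 0, 0 and 21 higher and 0, 4, 8 and 0 lower, and the respiratory chain had 2, 2, 3 and 11 higher and 2, 3, 36 and 1 lower. In these lists the lower counts were largest without miR-23a KO replicate 1 and the higher counts without miR-23a KO replicate 2. The mitochondrial median was −0.12 without miR-23a KO replicate 1 and 0.28 without miR-23a KO replicate 2, and the cytosolic median −0.06 and 0.30. With total counts, median-ratio scaling and the correction in turn, the mitochondrial list had 5, 8 and 16 higher and 2 lower each time, and the respiratory chain 1, 1 and 4 higher and 3, 1 and 1 lower. The cytosolic list had 2 higher after the correction.

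Proteasome subunits had 5 of 36 higher and 1 lower (PSMD2, which overlapped with median-ratio scaling and after GC and length correction), with a median log2 fold change of 0.09. PSMA4, of the core ring, read 53.1 and 51.8 CPM in Scr, against 86.8 and 87.5 for miR-23a KO and 73.0 and 75.2 for miR-27a KO. The replicates of each group were close together for PSMA4, with miR-23a KO highest, a log2 fold change of 0.62 (SE 0.24), and overlap after GC and length correction. PSMC6, an ATPase of the regulatory cap, read 16.8 and 26.4 CPM in Scr, against 39.96 and 56 for miR-23a KO and 33.0 and 32.8 for miR-27a KO. PSMC2, an ATPase of the same cap, read 0.557 and 0.946 CPM in Scr, against 1.52 and 8.56 for miR-23a KO and 1.33 and 2.41 for miR-27a KO. In PSMC2 and PSMC6 every KO value lay above both Scr values and miR-23a KO replicate 2 was the highest. The list had 5 higher and 1 lower without Scr replicate 1, 10 and 1 without Scr replicate 2, 8 and 9 without miR-23a KO replicate 1, and 11 and 1 without miR-23a KO replicate 2. The median was 0.02 without miR-23a KO replicate 1 and 0.16 without miR-23a KO replicate 2. With total counts 5 were higher and 2 lower, with median-ratio scaling 5 and 0, and after the correction 6 and 0.

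Cytosolic chaperones were split, with 5 of 23 higher and 4 lower and a median of 0.29. HSPA8, an HSP70, read 757 and 1039 CPM in Scr, against 1571 and 1207 for miR-23a KO and 1365 and 1375 for miR-27a KO. DNAJA1, a co-chaperone of HSP70, read 63.3 and 67.1 CPM in Scr, against 82.6 and 159 for miR-23a KO and 102 and 102 for miR-27a KO. HSPA8 and DNAJA1 were higher in every KO library, as were HSP90AA1, DNAJB4 and HSPB11, while HSPA1A, DNAJB1, CRYAB and HSPB2 were lower. The log2 fold change was 1.07 for HSP90AA1 and 1.09 for DNAJB4, and 0.44 for each without miR-23a KO replicate 2. DNAJA1, HSP90AA1 and DNAJB4 overlapped with total counts, DNAJB4 and HSPA1A after GC and length correction, and DNAJB1 did so and with either other scaling. The chaperone list had 2 higher and 3 lower with total counts, 6 and 3 with median-ratio scaling and 5 and 2 after the correction. It had 5 higher and 4 lower without Scr replicate 1, 9 and 5 without Scr replicate 2, 8 and 6 without miR-23a KO replicate 1, and 5 and 6 without miR-23a KO replicate 2. Its median was 0.07 without miR-23a KO replicate 2 and 0.39 without Scr replicate 2.

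Smaller counts in other lists are named here with their members. Integrins and laminins had 3 of 23 lower (ITGA3, ITGA10, LAMB3) and 0 higher, while FERMT2, the integrin activator, was higher. ITGA3 read 6.26 and 3.18 CPM in Scr, against 1.60 and 2.05 for miR-23a KO and 2.48 and 1.93 for miR-27a KO. The KO values of ITGA3 lay close together under both Scr values. Receptor tyrosine kinases and ligands had 3 higher (EGF, NRG4, EGFR) and 2 lower (PDGFA, FGFR1) of 36. EGF read 1.11 and 1.35 CPM in Scr, against 1.98 and 2.32 for miR-23a KO and 5.39 and 3.49 for miR-27a KO. EGF, a growth factor for hepatocytes, was highest in miR-27a KO. Imprinted genes had 3 lower (GRB10, IGF2R, SLC22A18) and 1 higher (NAP1L5) of 16, and GRB10, an adaptor that restrains insulin signalling, read 33.3 and 26.8 CPM in Scr, against 19.8 and 23.2 for miR-23a KO and 3.03 and 2.65 for miR-27a KO. Phase II enzymes had 3 higher (TPMT, GSTM2, AS3MT) and 1 lower (UGT1A3) of 34. TPMT, which methylates thiopurines, read 11.5 and 18.9 CPM in Scr, against 25.0 and 28.5 for miR-23a KO and 24.4 and 27.7 for miR-27a KO. GRB10 was far lower in miR-27a KO than in miR-23a KO, and TPMT was at a like level in all 4 KO libraries. ITGA10, EGFR and FGFR1 overlapped with total counts and after GC and length correction, NRG4, IGF2R and AS3MT with total counts, and GRB10 and SLC22A18 after the correction. Without Scr replicate 1, Scr replicate 2, miR-23a KO replicate 1 and miR-23a KO replicate 2 in turn, integrins and laminins had 4, 7, 4 and 4 lower and 1, 0, 4 and 0 higher. Receptor tyrosine kinases and ligands had 2, 7, 5 and 6 lower and 7, 3, 6 and 8 higher. Imprinted genes had 3, 6, 5 and 6 lower and 1, 1, 4 and 2 higher, and phase II enzymes 5, 2, 6 and 1 lower and 4, 8, 4 and 10 higher. With total counts, median-ratio scaling and the correction in turn, receptor tyrosine kinases and ligands had 2, 4 and 7 higher and 1, 2 and 1 lower, and integrins and laminins 3, 3 and 2 lower. Phase II enzymes had 2, 4 and 3 higher and 2, 1 and 2 lower, and imprinted genes 3, 3 and 1 lower and 1 higher each time.

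Among immune lists, interferon-stimulated genes had 2 lower (OAS1, STAT2) and 1 higher (XAF1) of 27, HLA-E was the 1 of 12 class I genes apart, and CXCL8 and IL17RB were the 2 higher of 17 cytokine genes. XAF1, which had the widest gap of its list, held 3 and 1 counts in Scr and 8 to 13 in each KO library, and it was higher with either other scaling and after the correction. HLA-E read 3.90 and 5.21 CPM in Scr, against 2.28 and 1.29 for miR-23a KO and 1.09 and 1.33 for miR-27a KO, a log2 fold change of −1.60 (SE 0.47). OAS1, a sensor of double-stranded RNA, read 25.8 and 32.2 CPM in Scr, against 19.5 and 16.1 for miR-23a KO and 17.6 and 17.6 for miR-27a KO. Both were lower in all KO libraries, OAS1 at a more even level than HLA-E, and HLA class I genes share reads, so HLA-E is uncertain. Among metabolic lists, urea cycle and amino acid genes had 3 of 30 lower (CTH, GOT2, HGD) and gluconeogenesis 2 of 12 (G6PC, PC), with 0 higher in either. Glycolysis had PFKM lower of 22, apolipoproteins and lipoprotein handling had ANGPTL8 and PLTP lower of 22, and p53 targets had GADD45A and TNFRSF10B lower of 26. ANGPTL8, which limits lipoprotein lipase after meals, read 270 and 260 CPM in Scr, against 207 and 42.8 for miR-23a KO and 135 and 134 for miR-27a KO. GADD45A, a stress-response gene, read 57.0 and 40.4 CPM in Scr, against 23 and 31.1 for miR-23a KO and 22.5 and 23.6 for miR-27a KO. Both were lower in every KO library, and ANGPTL8 varied widely within miR-23a KO. STAT2, CXCL8, PLTP and TNFRSF10B overlapped with total counts and after GC and length correction, IL17RB with total counts, and GOT2 and HGD after the correction.

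These immune and metabolic lists were counted with Scr replicate 1, Scr replicate 2, miR-23a KO replicate 1 and miR-23a KO replicate 2 left out in turn, where 1530 of 14708, 2368 of 14759, 2993 of 14061 and 1534 of 13935 genes were lower in all, and 8.66%, 14.2%, 19.7% and 9.19% were higher. Interferon-stimulated genes had 3, 7, 9 and 2 lower and 1, 4, 4 and 3 higher, class I genes 1, 1, 2 and 1 lower and 0, 0, 2 and 2 higher, and cytokine genes 2, 3, 3 and 1 lower and 3, 2, 5 and 2 higher. Urea cycle and amino acid genes had 8, 10, 9 and 5 lower and 0, 1, 0 and 1 higher. Gluconeogenesis had 2, 3, 5 and 4 lower and 0, 1, 0 and 0 higher, and glycolysis 3, 5, 5 and 2 lower and 2, 3, 3 and 1 higher. Apolipoprotein genes had 3, 4, 10 and 3 lower and 0, 2, 1 and 3 higher, and p53 targets 3, 5, 9 and 5 lower and 0, 2, 5 and 1 higher. With total counts, median-ratio scaling and the correction in turn, urea cycle genes had 5, 3 and 2 lower, gluconeogenesis 2, 2 and 3, apolipoproteins 1, 2 and 2, p53 targets 1, 2 and 3 and interferon-stimulated genes 1, 2 and 2. Cytokine genes had 0, 2 and 1 higher. After the correction glycolysis had 4 higher and 1 lower, where it had 0 and 1 with either scaling, and urea cycle genes and p53 targets each had 1 higher and cytokine genes 1 lower.

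The complement gene C6 was higher, 1 of 20, as was AKR1D1, of bile acid synthesis, 1 of 16 in its list. AKR1D1 read 3.97 and 6.69 CPM in Scr, against 12.4 and 13 for miR-23a KO and 9.64 and 9.58 for miR-27a KO. Every KO value lay above both Scr values, with a log2 fold change of 1.07 (SE 0.38). TMEM170B was higher, 1 of 16 in the list of EMT and cadherins, and overlapped with total-count scaling and after GC and length correction. Hepatocyte transcription factors had 1 of 29 lower, XBP1, and hepatocyte markers 1 of 10, FGB. WNT targets had 2 of 21 lower, CCND1 and MYC, and leukocyte markers 1 of 4 tested, the lysosomal CD68. ABC transporters had 1 higher (ABCA10) and 1 lower (ABCC1) of 31, and replication-dependent histones 1 (HIST1H2BK) and 1 (HIST1H2BD) of 14. With Scr replicate 1, Scr replicate 2, miR-23a KO replicate 1 and miR-23a KO replicate 2 left out in turn, hepatocyte transcription factors had 5, 6, 8 and 4 lower and 0, 2, 2 and 2 higher. The bile acid list had 4, 0, 9 and 0 lower and 1, 2, 1 and 1 higher, and complement had 1, 5, 3 and 0 lower and 1 higher each time. ABC transporters had 3, 4, 6 and 3 lower and 4, 6, 4 and 3 higher, WNT targets 2, 6, 3 and 3 lower and 1, 1, 2 and 2 higher, and histones 5, 2, 4 and 1 lower and 2, 1, 1 and 1 higher. The EMT list had 1, 2, 1 and 1 lower and 1, 1, 2 and 1 higher, hepatocyte markers 2, 1, 2 and 2 lower and 0, 0, 0 and 3 higher, and leukocyte markers 1, 2, 1 and 1 lower and 0 higher. Bile acid genes thus ranged from 0 to 9 lower over these settings. With total counts, median-ratio scaling and the correction in turn, hepatocyte transcription factors had 3, 0 and 3 lower, WNT targets 1, 2 and 1, hepatocyte markers 1, 1 and 2, and ABC transporters 2, 1 and 2 lower and 2, 1 and 3 higher. The bile acid list had 1 higher each time and 1, 0 and 1 lower, and the EMT list 0, 1 and 0 higher and 1, 0 and 0 lower.

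With all 6 libraries no member was apart among cholangiocyte (3 tested), fibroblast (2), endothelial (2), metallothionein (5), oncofetal (23), tight junction (27), collagen and matrix (26) or HOX genes (9), each with 0 edgeR calls. With libraries left out in the same order, from Scr replicate 1 and Scr replicate 2 to miR-23a KO replicate 1 and miR-23a KO replicate 2, some were. Collagen and matrix genes had 0, 8, 4 and 7 lower and 3, 0, 4 and 0 higher. Tight junction genes had 1, 2, 5 and 0 lower and 1, 1, 3 and 1 higher, and oncofetal genes 0, 4, 3 and 3 lower and 0, 0, 4 and 0 higher. Metallothioneins, which bind zinc and copper, had 0, 2, 3 and 0 lower and 0 higher, and HOX genes 1, 2, 0 and 1 lower and 1, 0, 1 and 0 higher. Cholangiocyte and fibroblast markers each had 0, 1, 1 and 0 lower and 0 higher, and endothelial markers had 0 in either direction. With total counts collagen and matrix genes had 2 lower, oncofetal genes 3 and the tight junction, cholangiocyte and fibroblast lists 1 each. With median-ratio scaling 1 collagen or matrix gene was higher, and after the correction 1 was higher and 1 lower, with 1 oncofetal gene lower.

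Of 21 genes of miRNA processing and Argonaute, 2 were lower and 0 higher, and the median log2 fold change was 0.19. PRKRA, a partner of Dicer, read 93.7 and 99.2 CPM in Scr, against 77.1 and 78.7 for miR-23a KO and 71.0 and 71.9 for miR-27a KO. DGCR8, a subunit of the nuclear miRNA processor, read 41 and 40.4 CPM in Scr, against 34.6 and 34.8 for miR-23a KO and 34.5 and 38.6 for miR-27a KO. Both were lower by small margins and overlapped with total-count scaling, and DGCR8, at a log2 fold change of −0.19 (SE 0.23), turned to 0.02 after GC and length correction. Without miR-23a KO replicate 1, 13 of the 21 genes (61.9%) were higher and 2 lower, where 19.7% of all genes were higher. The list had 0 higher and 2 lower without Scr replicate 1, 1 and 3 without Scr replicate 2, and 0 and 2 without miR-23a KO replicate 2. Its median was 0.04 without miR-23a KO replicate 2, 0.40 without miR-23a KO replicate 1 and 0.02 after the correction. With total counts 0 were apart, with median-ratio scaling 2 were lower, and after the correction 2 were higher and 2 lower.

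The study named 7 candidate target genes and 9 cell-cycle genes. It picked them with the help of the same libraries, and the candidates also by predicted sites of both miRNAs. Their side of Scr here is therefore no independent evidence. Beyond these libraries it followed the 9 cell-cycle genes by qPCR in cells with the cluster repressed. For PURA it also used Argonaute immunoprecipitation, a UTR reporter, protein assays and silencing, none of which were examined here. Of the candidates, NAA50 and PURA were higher in all 4 KO libraries and BMPR2, RBM12B, RYBP, TARDBP and VCAN overlapped. PURA read 5.63 and 8.45 CPM in Scr, against 9.67 and 11.1 for miR-23a KO and 11.3 and 10.5 for miR-27a KO. NAA50 read 12.6 and 16.2 CPM in Scr, against 16.4 and 54.1 for miR-23a KO and 17 and 26.9 for miR-27a KO. The KO values of PURA were close together, and NAA50 was barely above Scr in miR-23a KO replicate 1. Both overlapped with total-count scaling, and PURA also after GC and length correction. Of the cell-cycle genes, PURA, MAD2L1 and CDK1 were higher and CDC27, STAG1, TTK, PLK1, BUB1 and SMC1A overlapped. CDK1, the main mitotic kinase, read 17.9 and 23.1 CPM in Scr, against 43.3 and 47.1 for miR-23a KO and 23.6 and 24.7 for miR-27a KO. The miR-23a KO values of CDK1 were the highest, and those of miR-27a KO lay only just above Scr replicate 2. Without Scr replicate 1, Scr replicate 2, miR-23a KO replicate 1 and miR-23a KO replicate 2 in turn, 3, 3, 7 and 2 of the 7 candidates and 3, 7, 5 and 3 of the 9 cell-cycle genes were higher, and 0 were lower. Candidates numbered 0 higher with total counts and 4 with median-ratio scaling and after GC and length correction. The cell-cycle genes numbered 2, 3 and 3 higher in these settings.

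Features the rule did not use were set beside all genes tested, with no test. Protein-coding genes made up 88.5% of the higher, 87.2% of the lower and 88.4% of all genes tested, and long non-coding RNAs 8.29%, 8.98% and 8.29%. Median transcript length was 2881, 3106 and 3200 bases, and median 3′ UTR length 1550, 1588 and 1553 bases. Gene class and UTR length were thus alike in the sets as measured, without the correction for GC content and length. Level comes from the same CPM values as the rule, and the median of the mean level over the 6 samples was 10.1 CPM for the higher genes, beside 19.7 for the lower genes and 19.2 for all.

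Base composition differed. The median GC content of the transcript was 42.4% for the higher genes, 52.0% for the lower genes and 49.7% for all. Genes were ordered by GC content and cut into 10 groups of equal size. In the group of lowest GC content, 135 of 1347 genes were higher and 17 (1.26%) lower. In group 6 the shares were 2.45% higher and 12.5% lower, and in the group of highest GC content 0.52% and 4.45%. After correction of GC content and length in each library, the 10 groups had between 7.06% and 12% higher and between 4.16% and 8.61% lower. The part of base composition in the chosen genes beyond these values was not tested.

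**Figure D5:**
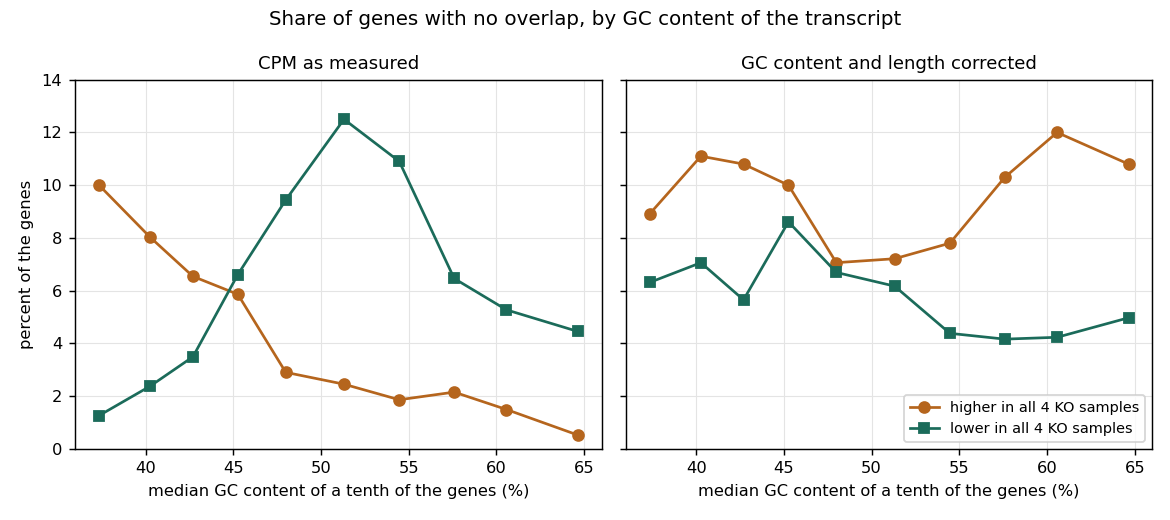
Percent of genes higher (brown circles) or lower (green squares) in all 4 KO samples against the median GC content of each of 10 groups of genes, for CPM as measured (left) and after correction of GC content and length (right). As measured, the share of higher genes falls to 0.52% as GC content rises, and after correction it lies between 7.06% and 12%.

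Site shares are of the genes with a 3′ UTR in the annotation, which as measured were 525 higher, 779 lower and 12552 of all genes tested. A miR-23a-3p site in the 3′ UTR was present in 25.5% of these higher genes, 19.6% of the lower genes and 21.1% of all. A miR-27a-3p site was present in 21.1%, 17.6% and 18.7% of the same genes. The shares were a little above all genes on the higher side. After GC and length correction the order reversed, with a miR-23a-3p site in 17.2% of the higher and 26.2% of the lower genes. For miR-27a-3p the shares were 16.7% and 22.2%. The order of the shares thus depended on the correction. In the corrected sets the median 3′ UTR length was 1353 bases for the higher, 1791 for the lower and 1553 for all genes. UTR length thus differed between these sets, and its part in the site shares was not tested. A match of the seed bases is a description and not evidence of regulation.

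By chromosome, the share of higher genes ran from 2.43% on chromosome 19 (25 of 1029) to 6.54% on chromosome 4 (31 of 474). The share of lower genes ran from 3.99% on chromosome X (17 of 426) to 9.80% on chromosome 20 (39 of 398). No chromosome held most of the chosen genes.

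At the edge of the rule, ANLN was just inside on the higher side, with 15.8 CPM in both its highest Scr and its lowest KO library, and ANGPT2 was just outside. ANLN overlapped with total counts and after GC and length correction. PDIA4, at 575 CPM in both its lowest Scr and its highest KO library, was just inside on the lower side, and POU6F1 was just outside. For the 1.5-fold gap, PTGR2 with a log2 gap of 0.60 was just inside and LZTFL1 with 0.58 just outside on the higher side. On the lower side CORO2B with −0.59 was just inside and ST3GAL6-AS1 with −0.58 just outside. PTGR2 read 1.04 and 1.49 CPM in Scr, against 2.51 and 3.50 for miR-23a KO and 3.27 and 3.55 for miR-27a KO.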

How the data were processed

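The authors deposited one table of expected counts per gene for the 6 RNA-seq samples (2 Scr, 2 miR-23a KO, 2 miR-27a KO), whose columns carry an FPKM name. That the values are expected counts is an inference, made because 42.6% to 51.0% of them are whole numbers and the totals differ between samples, and every CPM and counting interval rests on it. The submitters' processing notes name HISAT, StringTie, Cufflinks and GATK without role or version, and the genome build and the use of strand in counting are not given in the sources used here. The methods name a stranded mRNA kit and the labels another kit. Counts were rounded to whole numbers and 0 value columns were left unused. Total counts ranged from 14405302 to 16515321.

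Genes were filtered with filterByExpr, scaled by TMM and fitted with glmQLFit and glmQLFTest, 4 KO against 2 Scr (R 4.3.3, edgeR 4.0.16, limma 3.58.1), with Benjamini-Hochberg adjustment. The gap is the log2 ratio between the nearest KO and Scr libraries after adding 0.5 CPM. Alternatives were DESeq2 1.42.0, 3 groups, total-count and median-ratio scaling, no filter, replicate block, GC and length correction by loess (span 0.5, degree 2), a stricter threshold or gap, and leaving out each library. GENCODE 29 matched 17919 of 20026 genes (89.5%) for length, GC content and 3′ UTRs.

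Named genes were the 12 with the widest gap in each direction, up to 4 members of each of 51 lists with the widest gap in its prevailing direction, and the genes the study names. Genes outside that rule were named after their values were seen. Members and lists were chosen with earlier results of these data known. Not analysed here were TWIST1, the cluster miRNA genes and their host transcript. The edgeR fit with TMM scaling, the no-overlap rule and the correction for GC content and length were first tested on simulated data.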

Additional observations from a re-analysis of the deposited data

How the results depend on the processing

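Of 1564 pairs of a named gene and an alternative, over 113 genes, 1542 kept direction and side of the threshold, 13 passed it only in DESeq2, and 7 lost it (CTDSPL and RTL8C). DGCR8 alone reversed, to a log2 fold change of 0.02 after GC and length correction and 0.02 with the replicate block added. Leaving out a library moved the log2 fold change by more than 1.5 times in 26 of the 113 genes: 15 without Scr replicate 1 (CYP1A1, DDIT3, F7, HSPA8, IL17RB, ITGA3, LAMB3, MYC, NQO1, PLTP, PSAT1, PURA, SLC22A18, TNFRSF10B and TPMT) and 8 without Scr replicate 2 (ACACB, AS3MT, CYP17A1, IL17RB, LOC107985381, PURA, SCD and TPMT). Without miR-23a KO replicate 1 there were 2 (ACACB and IGF2R), without miR-23a KO replicate 2 there were 7 (DNAJB4, EGFR, HSP90AA1, LOC107985381, NAA50, PSMC2 and SCD), and without either miR-27a KO library 0. Genes without overlap numbered 1293 higher after GC and length correction, and 18 higher and 71 lower with a gap over 1.5-fold. Leaving out a library gave 686 to 2775 higher and 992 to 2993 lower, a rise that follows from fewer libraries having to lie apart. EdgeR calls were 0 higher and 2 lower, beside 108 and 171 genes at an unadjusted p under 0.05. DESeq2 called 4 higher and 14 lower, and 3 groups in edgeR called 6 lower. Under an adjusted p of 0.001, 0 were lower in edgeR, and leaving out a library gave 0 to 2 lower. Replicate numbers did not pair the samples: deviations from the group means correlated at 0.24, −0.01 and 0.02 over genes, so samples share only a number. With the replicate block edgeR called 0 higher and 1 lower, losing RTL8C, and with GC and length correction as well 1 lower. It changed no other call. Other causes were not tested. Where 1 Scr library was left out, the other was taken to vary like the KO libraries.

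Depth limits the widest gaps: several rest on 0 to 4 counts per library, where a bound or a counting interval is given and a fitted fold change depends on the prior count. The 4 KO libraries span 2 genotypes and a wide miR-23a KO pair, which enters the spread of the test. No other Scr colonies were analysed here.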
